A study of Notophthalmus viridescens with 3 samples.

Results

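Passenger strand miRNAs, whose names end in an asterisk and are called stars below, were described in whole hearts of the adult newt Notophthalmus viridescens, a salamander that regrows heart muscle after injury. They were taken by name alone, as all miRNA probes of the array whose reporter name ends in an asterisk, and they made up 217 of the 1365 miRNA probes. One heart sample was uninjured, 1 was taken 7 days post injury (dpi) and 1 at 21 dpi, and each was read on 1 array stained with Cy3. No transgene or drug is named in the labels, which give the injury only as the method of an earlier study, and they do not state how many hearts went into each RNA sample. With 1 sample in each group there is no significance test, and every difference below describes 3 RNA samples.

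The probes were designed for human (hsa), zebrafish (dre) and Xenopus (xtr, xla) miRNAs, so a newt miRNA that differs from these is read through a mismatched probe or missed. Of the stars, 182 carried a human name, 25 a zebrafish name and 10 a frog name as their reporter name. Counting every species listed for a probe, 177 were listed for human alone and 40 also or only for frog or zebrafish. In 215 cases the array held a probe listed under the same name without the asterisk, called the main strand here. Of these, 29 were matched after removing the number of the precursor (miR-24-1* with miR-24). The reporter name of the main strand can be that of another species, as for dre-miR-133a* with hsa-miR-133a and xtr-miR-199a* with hsa-miR-199a-5p.

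A miRNA is cut by the enzyme Dicer from the stem of a hairpin as a short duplex of its 5′ and 3′ arms. One strand, the guide, is usually kept in an Argonaute protein and pairs with target mRNAs through its seed near the 5′ end, while the other, the passenger, is usually released and degraded. The asterisk was given in older naming to the arm found less often in the sequencing libraries of the time, so it records an abundance in those tissues, and later names by arm (-5p and -3p) replaced it.

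Detection meant that the median of a probe's 3 spots exceeded percentile 95 of the 587 empty spots of the same array, an intensity of 73.8 on the uninjured array, 77.5 at 7 dpi and 103 at 21 dpi. Only 12 stars passed this level on any array. Their target sequences, as printed on the array, are shown because all further values rest on them, with bases 2 to 8, the seed, in capitals.
dre-miR-133a*: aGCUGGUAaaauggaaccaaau
dre-miR-126b*: cGUACCGUgaguaauagugca
dre-miR-140*: uACCACAGgguagaaccacggac
xtr-miR-199a*: uACAGUAGucugcacauugguu
hsa-miR-24-1*: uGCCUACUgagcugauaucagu
hsa-miR-15a*: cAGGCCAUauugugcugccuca
hsa-miR-195*: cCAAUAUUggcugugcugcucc
hsa-let-7d*: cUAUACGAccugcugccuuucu
hsa-miR-99b*: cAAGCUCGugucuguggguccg
hsa-miR-30a*: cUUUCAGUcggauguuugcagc
hsa-miR-218-2*: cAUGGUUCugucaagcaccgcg
hsa-miR-877*: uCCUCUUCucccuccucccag

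No 2 of these 12 share a seed. The stars of miR-15a and miR-195, whose main strands have 1 seed in common (AGCAGCA), hold the same run ugugcugc in their 3′ parts. In the duplex predicted with RNAduplex, 9 of the 12 stars had 16 to 20 base pairs with their main strand. The star of miR-877 had 13 and the star of miR-24-1 had 12. The star of miR-126b also had 12, but its main strand probe has the same arm as target, so this is not a duplex of 2 arms.

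The following sequences, of main strands and of probes under arm names, are shown because they decide which detected stars were read by another probe as well.
hsa-miR-133a: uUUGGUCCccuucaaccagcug
hsa-miR-140-5p: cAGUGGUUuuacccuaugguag
hsa-miR-140-3p: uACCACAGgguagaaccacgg
hsa-miR-199a-5p: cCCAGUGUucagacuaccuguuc
hsa-miR-199a-3p: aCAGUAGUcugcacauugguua
xtr-miR-189: gUGCCUACugaacugauaucagu
dre-miR-126b: uCGUACCGugaguaauagugca

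The zebrafish star of miR-140 matched the human miR-140-3p probe without a mismatch over 21 bases, and the frog star of miR-199a matched human miR-199a-3p without a mismatch over 21 bases at a shift of 1 base. Both are the 3′ arms of their hairpins, stars by one species' naming and not by the other's. The star of miR-24-1 differed from frog miR-189 by 1 mismatch over 22 bases, and the star of miR-30a from frog miR-30a-3p by 1 mismatch over 22 bases. The zebrafish star of miR-126b was the exception among all pairs: it matched its own main strand without a mismatch over 21 bases at a shift of 1 base, so these probes have the same arm as target. Of the 217 stars, 13 had such a near-identical probe without an asterisk (0 or 1 mismatch in an overlap of 18 bases or more, shifted by 2 bases or fewer), and 5 of those 13 were detected on some array. Of the 204 without one, 7 were detected, and among the 4 stars detected on all arrays the star of miR-133a was the one without such a probe.

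Few stars rose above the empty spots. On the uninjured array 8 of 217 stars were detected (3.69%), on the 7 dpi array 9 (4.15%) and on the 21 dpi array 4 (1.84%). Of the 1148 miRNA probes without an asterisk, 217 (18.9%), 211 (18.4%) and 176 (15.3%) were detected on the same arrays. Over all miRNA probes the share was 16.5% on the uninjured array, 16.1% at 7 dpi and 13.2% at 21 dpi. By the construction of the level, 5.11% of single empty spots lay above it on each array. This share cannot be set against that of the stars, since a median of 3 spots passes such a level less often than a single spot. The share for medians of 3 empty spots was not computed. The median intensity of the stars was 62.5, 67.0 and 59.1 in the order of the times, below the median empty spot of each array (68.0, 71.7 and 71.4). That of the probes without an asterisk, 64.1, 68.3 and 60.1, was below it too, so this is not particular to stars. The stars never detected had intensities of 56.6 to 73.05 on the uninjured array, 60.7 to 75.7 at 7 dpi and 53.6 to 70.5 at 21 dpi.

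The level lay in the upper edge of this mass on the first 2 arrays. On the uninjured array the star of miR-195, at 73.9, was just inside it and that of miR-30b, at 73.05, just outside. At 7 dpi the star of miR-218-2, at 77.5, was just inside and that of miR-1915, at 75.7, just outside. At 21 dpi there was a wide gap between the star of miR-24-1 at 129.6 and that of miR-126b at 79.8. The level was highest there (103), so counts of detected stars are not alike between arrays. The stars of miR-126b and miR-30a, at 79.8 and 79.4 at 21 dpi, were above the levels of the uninjured (73.8) and 7 dpi (77.5) arrays. The undetected stars hsa-miR-125b-1* and hsa-miR-149* had mean normalized signals among those of the detected ones, with median spots of 65.5 and 69.0 on the uninjured array, 69.9 and 73.4 at 7 dpi, and 61.3 and 64.9 at 21 dpi.

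Species naming went with detection. Of the 40 stars listed for frog or zebrafish, 5 were detected on any array (12.5%), against 7 of the 177 listed for human alone (3.95%). Among these 5 are dre-miR-126b*, dre-miR-140* and xtr-miR-199a*, each matching a detected probe without an asterisk over 21 bases with no mismatch. The higher share among stars thus rests in part on arms that carry a name without an asterisk elsewhere. Probes without an asterisk differed in the same direction, with 153 of 322 listed for frog or zebrafish detected (47.5%) and 95 of 826 listed for human alone (11.5%). In both classes of species the share was lower for stars. Likeness of the newt sequence to each species was not tested.

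A detected main strand was seldom joined by its star. On the uninjured array 6 of the 215 pairs had both strands detected, 76 the main strand alone, 2 the star alone and 131 neither. At 7 dpi these counts were 4, 71, 5 and 135, and at 21 dpi 3, 72, 1 and 139. The 6 pairs of the uninjured array, and the 7.32% below, include dre-miR-126b* with dre-miR-126b. Both of these probes have the same arm as target, so that pair does not show both strands. Where the main strand was detected, the star was detected in 7.32%, 5.33% and 4% of pairs on the 3 arrays, and where the main strand was not, in 1.504%, 3.57% and 0.714%.

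**Figure D1:**
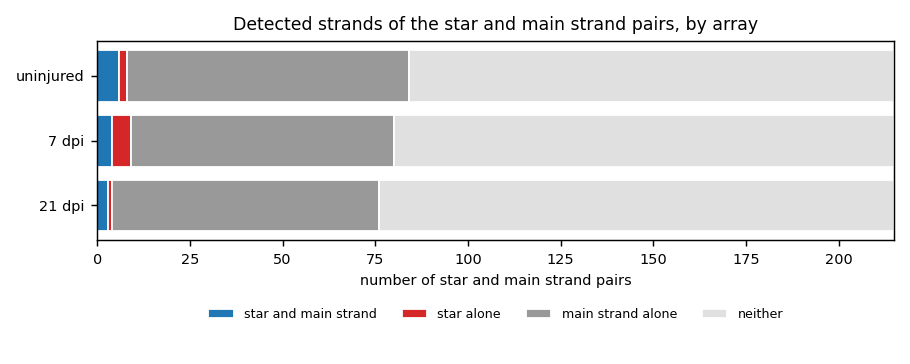
Number of pairs of a star and its main strand (x axis, 215 pairs) by which strands were detected, 1 bar for each array in the order of the times. The main strand alone makes up 71 to 76 pairs on every array, and the star alone is most frequent at 7 dpi, with 5 pairs. On the uninjured array the pairs with both detected include dre-miR-126b* with dre-miR-126b, probes of the same arm.

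Bright main strands did not as a rule bring a visible star. The 15 main strands that were brightest above the empty spots on the uninjured array, a set picked after the values were known, have 21 star probes. Of these, 3 were detected on some array, a larger share than the 12 of all 217 stars (5.53%), and 18 were not detected on any. Those 18 read 59.4 to 66.2 on the uninjured array, 60.7 to 69.9 at 7 dpi and 55.6 to 63.4 at 21 dpi, all below the median empty spot of their array. For let-7a, a broadly expressed miRNA that accompanies differentiation, the main strand stood 12728 above the empty spots of the uninjured array, 5063 at 7 dpi and 10789.6 at 21 dpi, while hsa-let-7a* read 59.4, 60.7 and 56.6. The endothelial hairpin of miR-126 gave 2949, 867 and 2844 above the empty spots for its main strand, and 64.4, 69.2 and 57.3 for hsa-miR-126*, a probe listed for human, frog and zebrafish alike. A level of 1 probe cannot be set against that of another, since probes differ in hybridization, so no strand ratio is given.

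The arrays differed in brightness. Across the 169 miRNA probes detected on all of them, the median log2 ratio of intensity above the empty spots was -1.43 at 7 dpi over uninjured and 0.42 at 21 dpi over uninjured, while that of 14 probes for 5S rRNA was -0.10 and 0.35 and that of 16 spike-in probes 0.46 and 1.46. RNA sent for assay was 2.6, 5.1 and 3.3 µg in the order of the times, with 0.5 µg used in each. Differences below are log2 differences of signal after quantile normalization, which sets these shifts to the same overall distribution, and each ± is the standard error from the 3 replicate spots on both arrays, a technical spread. The background correction that comes before normalization adds an offset of 50 ahead of the log, which compresses differences of dim probes. The alternative setting without normalization carries this offset too. In whole-heart RNA, fewer cells of a type and less RNA in each cell cannot be told apart.

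By their main strands the samples held miRNAs of striated muscle and vessels. The striated muscle probes were counted together, so the counts do not tell heart from other striated muscle. Of 10 striated muscle probes (miR-1, miR-133, miR-206, miR-208 and miR-499), 9, 8 and 8 were detected on the uninjured, 7 dpi and 21 dpi arrays, as were both endothelial miR-126 probes and all 5 smooth muscle probes on each. Leukocyte probes (miR-142, miR-150, miR-155 and miR-223) summed to 281, 447 and 901 above the empty spots, with 5, 6 and 6 of 9 detected. Erythroid probes were detected in 2, 1 and 2 of 3 cases and epithelial probes in 4, 3 and 1 of 8. Neural and embryonic probes were not detected on any array, and both liver miR-122 probes were detected at 7 dpi alone.

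No star was called different in any comparison. A call needed a log2 difference of at least 1 in size (2-fold), detection on at least 1 of the 2 arrays, and 3 spots of one array that all lay above those of the other. At 7 dpi against uninjured, 12 stars were among the 255 probes tested and 0 were called, where 8.63% of all probes tested were called higher and 3.92% lower. At 21 dpi against uninjured, 8 stars were among 230 probes and 0 were called, where 0.87% of all probes were called higher and 2.17% lower. At 21 dpi against 7 dpi, 9 stars were among 231 probes and 0 were called, against 3.9% called higher and 8.66% called lower over all probes. With so few stars, counts of 0 are near these backgrounds. Other settings called between 0 and 8 stars, and these counts are given further below with those over all probes. The star of miR-133a lay just short of the 2-fold threshold at both times after injury.

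Without the threshold on size, and among the tested stars alone (detected on at least 1 of the 2 arrays compared), 5 stars at 7 dpi had all spots above and 5 all spots below those of the uninjured array, beside 27.8% and 40.8% of all probes tested. At 21 dpi 0 of the 8 tested stars had all spots above and 6 had all spots below those of the uninjured array, beside 23% and 31.7% of all probes. At 21 dpi against 7 dpi 1 of the 9 tested stars had all spots above and 5 had all below, beside 37.2% and 32% of all probes. Of the 12 stars detected on any array, some were detected on neither array of a comparison, had spots apart too and were not counted. These were hsa-miR-877* at 21 dpi above uninjured, and dre-miR-126b* and hsa-miR-30a* at 21 dpi above 7 dpi. Stars never detected were not counted either. One of them, hsa-miR-30e*, had all spots below uninjured at 7 dpi and 21 dpi, and above 7 dpi at 21 dpi. A star detected on 1 of the 2 arrays alone entered through the array where it was brighter. Its direction, and with it the medians below, followed in part from this filter. At 7 dpi against uninjured such stars were hsa-let-7d*, hsa-miR-15a*, hsa-miR-218-2* and hsa-miR-877* above, and dre-miR-126b*, hsa-miR-30a* and hsa-miR-99b* below. The stars below at 21 dpi include such cases in both comparisons. The median difference of the stars was -0.05 at 7 dpi and -0.25 at 21 dpi against uninjured, and -0.24 at 21 dpi against 7 dpi, while over all probes tested it was -0.11, -0.06 and 0.05.

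**Figure D2:**
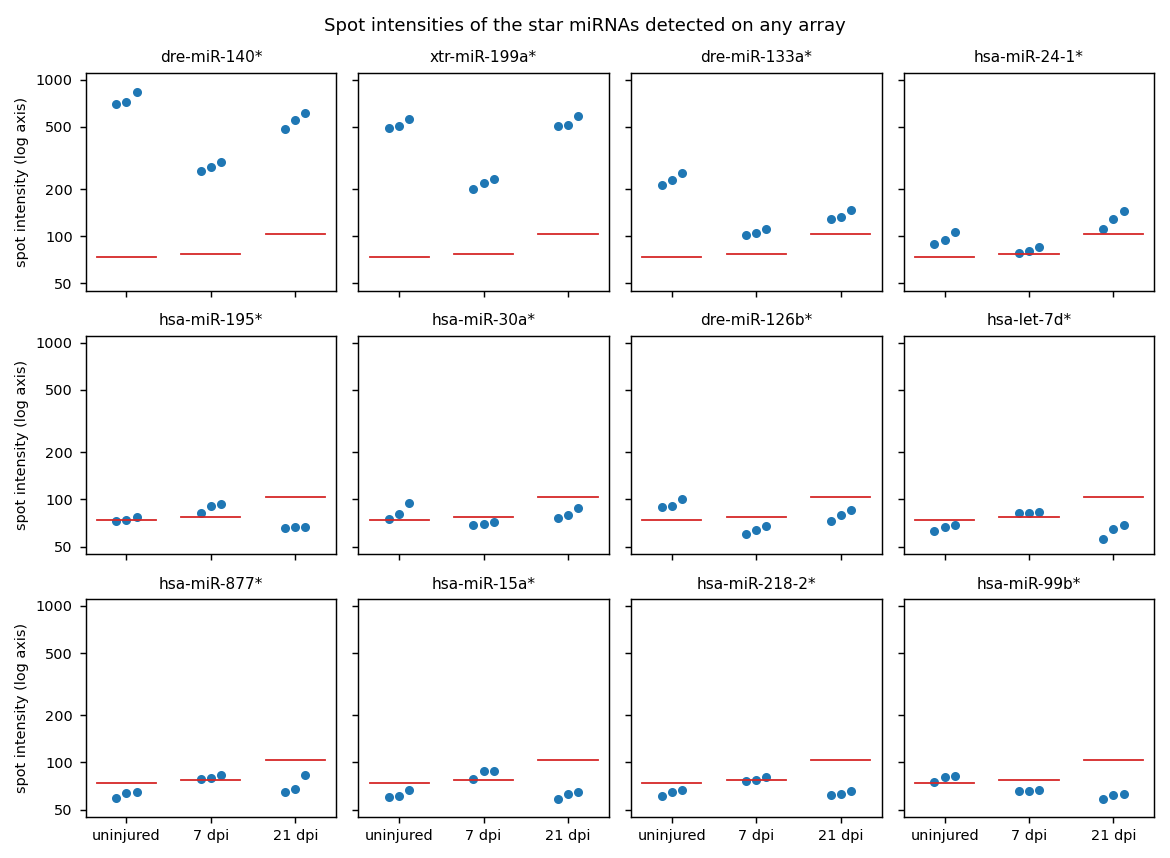
Intensity of the 3 replicate spots (points, log axis) of each of the 12 stars detected on any array, by time, with the detection level of each array as a red line. The stars of miR-140 and miR-199a lie at 201 or above on every array, while 8 of the others stay at or below 100.5.

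The striated muscle list held 2 stars, and 1 was detected. miR-133a is a muscle miRNA that in mouse and human restrains proliferation and helps to keep the contractile program. Its zebrafish star dre-miR-133a* had spots of 213, 229 and 252 on the uninjured array, 102, 105 and 111 at 7 dpi, and 129.2, 132 and 146 at 21 dpi. All spots after injury were below all spots of the uninjured heart, and those at 21 dpi were above those at 7 dpi before normalization. After normalization the difference was -0.92 ± 0.08 at 7 dpi and -0.99 ± 0.09 at 21 dpi against uninjured, and -0.06 ± 0.07 at 21 dpi against 7 dpi. Both differences from the uninjured heart were negative under 10 of 10 alternatives, over -1.66 to -0.03 at 7 dpi and -2.29 to -0.74 at 21 dpi, with the value nearest 0 at 7 dpi under scaling to the median of shared probes. At percentile 99 of the empty spots dre-miR-133a* was detected on the uninjured and 7 dpi arrays. It was not detected at 21 dpi, where that level was 194.

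The probe of the main strand was bright on every array and lacked this difference. The spots of hsa-miR-133a read 2380.3, 2646 and 3018 on the uninjured array, 1146, 1154 and 1265 at 7 dpi, and 3119, 3168 and 3402 at 21 dpi. Its normalized difference from uninjured was 0.35 ± 0.11 at 7 dpi and 0.05 ± 0.11 at 21 dpi. The difference of the star less that of the main strand was -1.27 ± 0.14 at 7 dpi and -1.04 ± 0.14 at 21 dpi, larger than the spread between spots. It was negative under 10 of 10 alternatives at both times, from -1.80 to -0.98 at 21 dpi but from -2.02 to -0.04 at 7 dpi. The value of -0.04, within the spread between spots, was given by the 4 settings that leave the arrays unnormalized or scale them by 1 factor each after the offset. Such a factor cancels in the star less the main strand, so these 4 give the same value by construction (-1.01 at 21 dpi). The 10 alternatives are therefore not 10 separate readings.

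**Figure D3:**
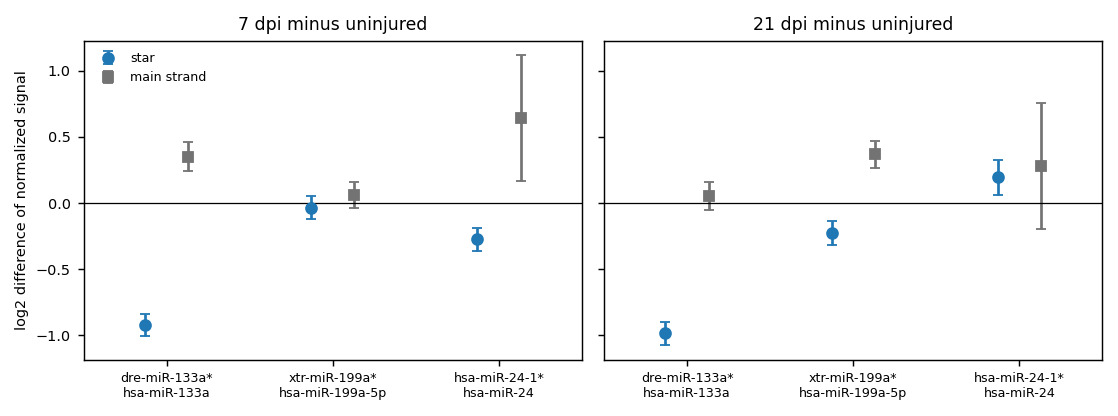
Log2 difference of normalized signal from the uninjured array at 7 dpi (left) and 21 dpi (right) for the 3 stars detected on all arrays whose main strand was too, with the main strand beside each star. Error bars are the standard error over replicate spots, and dre-miR-133a* lies at -0.92 and -0.99 while hsa-miR-133a lies at 0.35 and 0.05.

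The size of this gap at 7 dpi depends on how the background and the scale are handled, as the value of -0.04 shows. The log2 ratio of intensity above the empty spots for dre-miR-133a* was -2.25 at 7 dpi and -1.39 at 21 dpi over uninjured. The 6 main strand probes of miR-133 that were detected on all arrays, from human and Xenopus, had ratios of -1.72 to -1.17 at 7 dpi and 0.05 to 0.36 at 21 dpi. The star lay below these 6 at both times. Another main strand probe, the zebrafish dre-miR-133c, was dim, with median spots of 99.7 on the uninjured array, 71.1 at 7 dpi, where it was not detected, and 107 at 21 dpi. Its normalized differences from uninjured were -0.60 ± 0.15 at 7 dpi, negative like that of the star, and -0.07 ± 0.17 at 21 dpi. The 6 probes have like sequences and are not independent readings. The other star of this list, dre-miR-133b*, read 59.9, 62.0 and 55.8 and was not detected.

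**Figure D4:**
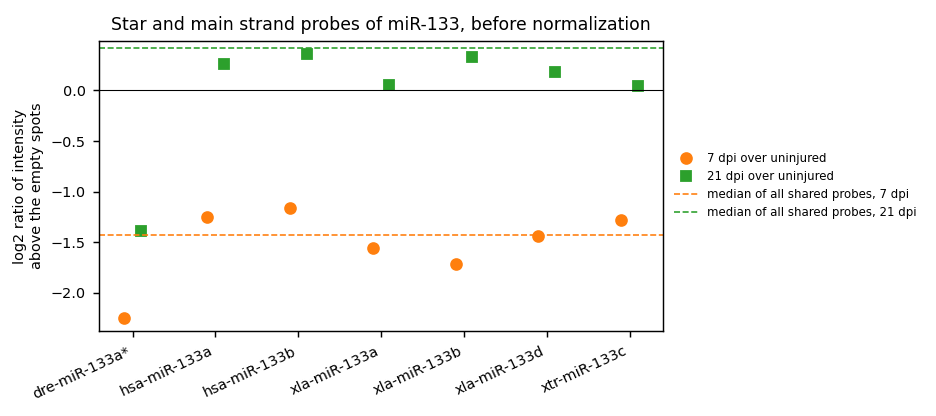
Log2 ratio of intensity above the empty spots at 7 dpi (circles) and 21 dpi (squares) over uninjured for the miR-133 probes detected on all arrays, with dashed lines at the median of all 169 shared probes. The star has the lowest ratio at both times, -2.25 and -1.39.

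The vessel list held 4 stars, of which dre-miR-126b* was detected on the uninjured array. Its spots read 89.4, 90.4 and 100.5 on the uninjured array, 59.9, 63.4 and 67.5 at 7 dpi, and 73.0, 79.8 and 85.6 at 21 dpi, so all spots after injury lay below those of the uninjured heart. As it was not detected after injury, its normalized level in the uninjured heart against the lowest detected level gives a bound. Under quantile normalization this was at least 1.22-fold above 7 dpi and at least 1.06-fold above 21 dpi. This bound, like those of other stars below, holds under that normalization alone. The difference at 7 dpi, -0.66 ± 0.08, turned to 0.49 under scaling to the median of shared probes. The probe shares its target arm with dre-miR-126b, detected at 122.3 on the uninjured array and 125.3 at 21 dpi but not at 7 dpi, where it read 68.8. A further probe of this arm, xtr-miR-126, differs from the star by 1 mismatch over 20 bases and was detected on all arrays, at 2614, 709 and 2565.

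Of the 9 stars in the matrix and injury list, 2 were detected, and they were the brightest stars on all 3 arrays. miR-140 is best known from cartilage in mouse and human, and miR-199a from mesenchymal and heart cells, both with a 3′ arm that is often abundant. The spots of dre-miR-140* read 698, 721 and 833 on the uninjured array, 262, 279 and 298 at 7 dpi, and 485, 550.2 and 609 at 21 dpi. After normalization it differed from uninjured by -0.07 ± 0.10 at 7 dpi, with overlapping spots, and by -0.65 ± 0.12 at 21 dpi, with all spots lower. The difference at 21 dpi was negative under 10 of 10 alternatives, and that at 7 dpi turned to 0.03 with the median of spots.

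The near-identical hsa-miR-140-3p probe had differences of the same sign, -0.24 ± 0.08 at 7 dpi and -0.48 ± 0.07 at 21 dpi. Its spots were 475, 502 and 545 on the uninjured array, 189, 209.6 and 213 at 7 dpi, and 403, 433 and 444 at 21 dpi. The main strand by name, hsa-miR-140-5p, was detected on the uninjured array alone, with median spots of 87.2, 70.9 and 71.6 in the order of the times. The probe of the arm with the asterisk was thus detected on all arrays, while that of the named main arm was near the empty spots. As probes differ in hybridization, this does not rank the 2 arms.

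The spots of xtr-miR-199a* read 494, 508 and 565 on the uninjured array, 201, 219 and 234 at 7 dpi, and 507, 516 and 588 at 21 dpi. After normalization it differed from uninjured by -0.03 ± 0.09 at 7 dpi and -0.23 ± 0.09 at 21 dpi, and the value at 21 dpi turned to 0.05 without normalization. Its main strand hsa-miR-199a-5p had spots of 251, 297 and 299.9 on the uninjured array, 164, 172 and 184 at 7 dpi, and 472, 506 and 542 at 21 dpi, a difference of 0.06 ± 0.10 at 7 dpi and 0.37 ± 0.10 at 21 dpi. The star less the main strand stood at -0.09 ± 0.13 at 7 dpi, within the spread between spots, but it ranged from -0.57 in the authors' deposited table to 0.15 with the median of spots. It was -0.55 without normalization and under the 3 settings that scale each array by 1 factor. At 21 dpi it stood at -0.59 ± 0.14, and it was negative there under 10 of 10 alternatives, over -0.93 to -0.49. The settings without normalization or with 1 factor for each array give the same value by construction, -0.82 at 21 dpi, so the 10 are not separate readings. The near-identical hsa-miR-199a-3p had a difference of -0.02 ± 0.05 at 21 dpi. At 7 dpi its spots were 84.1, 331 and 353, and the lowest of them sets its difference of -0.86 ± 0.71.

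In the list of miR-23, miR-27 and miR-24, which are cut from shared precursor transcripts, 1 of 7 stars was detected. hsa-miR-24-1* had spots of 89.7, 94.7 and 106.4 on the uninjured array, 78.2, 80.8 and 84.8 at 7 dpi, and 112, 129.6 and 144.4 at 21 dpi. At percentile 99 of the empty spots it was detected on the uninjured array alone. Of the 9 stars tested at 21 dpi against 7 dpi it was the one higher with all spots apart, by 0.47 ± 0.11, a difference that turned negative when shared, 5S rRNA or spike-in probes set the scale. Against uninjured it differed by -0.28 ± 0.09 at 7 dpi, which turned positive under scaling to shared or 5S rRNA probes, and by 0.19 ± 0.13 at 21 dpi with overlapping spots, which turned negative when 5S rRNA or spike-in probes set the scale. The near-identical frog probe miR-189 gave -0.11 ± 0.14, 0.33 ± 0.12 and 0.44 ± 0.09 for these comparisons (7 dpi and 21 dpi against uninjured, then 21 dpi against 7 dpi). The main strand hsa-miR-24 had a dim spot on the uninjured array (1004 beside 2619.5 and 2744), so the star less the main strand, -0.92 ± 0.48 at 7 dpi, rests on it and kept its direction under 6 of 10 alternatives. The star of the other precursor, hsa-miR-24-2*, read 60.9, 66.0 and 57.0 and was not detected.

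Of the 7 stars in the cell cycle list (miR-15, miR-16, miR-195 and miR-424, whose main strands restrain cell cycle genes), 2 were detected, both listed for human alone. hsa-miR-15a* read 59.9, 61.2 and 66.3 on the uninjured array, 79.0, 88.0 and 88.5 at 7 dpi, and 58.8, 62.6 and 64.7 at 21 dpi. hsa-miR-195* read 72.3, 73.9 and 76.8 on the uninjured array, 82.0, 90.5 and 92.8 at 7 dpi, and 65.7, 66.5 and 66.8 at 21 dpi. For both, all spots at 7 dpi lay above those of the other arrays. The normalized difference at 7 dpi against uninjured was 0.51 ± 0.08 for the star of miR-15a, a bound of at least 1.16-fold, and 0.31 ± 0.07 for that of miR-195. Neither main strand was detected on any array, with median spots of 65.2, 65.4 and 59.2 for hsa-miR-15a and 62.5, 65.7 and 63.4 for hsa-miR-195.

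A further 3 stars were detected at 7 dpi alone, each with all spots above those of the uninjured array. That direction follows in part from their selection as detected at 7 dpi alone. In the let-7 list, 1 of 10 stars was detected: hsa-let-7d* read 81.6, 81.9 and 82.5 at 7 dpi, against 62.7, 66.2 and 68.9 on the uninjured array, a bound of at least 1.10-fold. hsa-miR-877*, of a hairpin spliced from an intron, read 78.7, 79.4 and 83.3 at 7 dpi, against 59.7, 63.6 and 64.6 on the uninjured array (at least 1.07-fold). hsa-miR-218-2*, of a hairpin in an intron of a SLIT gene, read 75.7, 77.5 and 81.0 at 7 dpi, against 60.9, 64.5 and 67.0 on the uninjured array (at least 1.02-fold). At 21 dpi these 3 read 64.7, 67.5 and 63.0 at the median spot.

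All 5 stars that were brighter at 7 dpi are listed for human alone, as are 177 of the 217 stars. Of their main strands 4 were not detected on any array, let-7d being the exception, while over all 215 pairs the main strand was detected in 82, 75 and 75 on the uninjured, 7 dpi and 21 dpi arrays, so most stars have these features too. The GC content of their targets was 50% for hsa-let-7d*, 54.5% for the stars of miR-15a and miR-195, 59.1% for hsa-miR-218-2* and 61.9% for hsa-miR-877*, against a median of 50% for all stars, and it was 63.6% for hsa-miR-99b*, detected in the uninjured heart alone. The 30 miRNA probes of any name detected at 7 dpi alone had a median of 59.1%, against 47.8% for all probes, and the part of base composition in these values was not tested. The differences of the 5 stars from uninjured ranged from 0.28 to 0.51, and their size depends on the setting. Under scaling to shared probes they were 1.38 to 1.59, and in the authors' deposited table they were 1.55 to 4.76. With subtraction of the empty spots and a floor of 32 they were 0 for all 5, since both levels were at the floor, and under scaling to spike-in probes they turned to -0.04 for the star of miR-195 and -0.01 for that of miR-218-2. At percentile 99 of the empty spots none of the 5 was detected at 7 dpi.

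The remaining 2 stars were detected in the uninjured heart alone, by the level of each array, which was highest at 21 dpi. hsa-miR-30a*, of a family abundant in heart muscle, read 74.6, 81.2 and 94.1 on the uninjured array, 68.3, 69.6 and 72.0 at 7 dpi, and 75.8, 79.4 and 87.6 at 21 dpi. It was 1 of 6 stars of the miR-30 list, was at least 1.13-fold above 7 dpi in the uninjured heart, and its spots at 21 dpi overlapped those of the uninjured array. The near-identical probes hsa-miR-30e* and xtr-miR-30a-3p were not detected on any array, while the main strand hsa-miR-30a was detected on all, with median spots of 571, 219 and 823. hsa-miR-99b*, 1 of 9 stars of the list of miR-10, miR-99 and their relatives miR-100 and miR-125, read 75.2, 80.8 and 82.5 on the uninjured array, 65.4, 65.8 and 67.0 at 7 dpi, and 58.6, 61.9 and 62.6 at 21 dpi. All spots after injury were below those of the uninjured heart, at least 1.08-fold at 7 dpi, and the main strand hsa-miR-99b was not detected on any array. The differences of both stars at 7 dpi, -0.38 ± 0.11 and -0.43 ± 0.04, turned positive under scaling to shared or 5S rRNA probes.

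In the other 8 lists no star was detected. They hold 22 stars of the growth-promoting hairpins around miR-17 and miR-92, 6 epithelial, 6 embryonic, 5 neural, 4 of miR-26 and miR-101, 3 leukocyte, 1 erythroid and 1 liver star. With 3 leukocyte stars, a count of 0 is near the share over all stars (5.53% on any array). The summed level of leukocyte main strands was higher at 7 dpi and 21 dpi than in the uninjured heart. That sum was taken before normalization, on arrays that differed in brightness. Across all 16 lists, 10 of 102 stars were detected on any array, and of the 115 stars in no list 2 were. The lists were chosen with earlier results of these data known, so these counts are not a test of the lists.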

How the data were processed

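MicroRNA arrays of 3 newt heart samples (uninjured, 7 dpi, 21 dpi) were analysed, 1 array each. Spot intensity, the median density of a spot, is linear and has no background column beside it, per the file headers. No source used here names the image software. A table with a single processed intensity for each probe was deposited too and served as an alternative. Its values look background subtracted and scaled between arrays, and no source used here states how. Its array medians were 1.49, 0.807 and 2.40, and after log2 it correlated with unnormalized values at Pearson's r of 0.98, 0.96 and 0.99 over detected probes. The series text speaks of pairs hybridized together, while each file holds 1 channel, so values were treated as 1-colour.

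Intensities were corrected with normexp (offset 50, on the foreground of all spots) in limma 3.58.1 under R 4.3.3, put on the log2 scale, averaged over 3 spots and quantile normalized over 1365 probes. Later steps used Python 3.11.15, and duplexes came from RNAduplex in ViennaRNA 2.7.2. A bound is the brighter level over the higher of the lowest detected level and the level of the dim probe itself. It is taken on the quantile normalized values and holds under that normalization alone. The rule for named stars took those called in any comparison and the 12 with the highest mean signal, with their main strands. It was read as the 12 highest of the detected stars: over all stars, hsa-miR-125b-1* and hsa-miR-149*, not detected on any array, had higher means than hsa-miR-218-2* and hsa-miR-99b*. The probes, lists and markers were chosen with earlier results of these data known. The calls were tested on simulated data. Only probes well above the empty spots were changed there, so that test does not cover the dim stars. No newt genome was used, and no positions are given.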

Additional observations from a re-analysis of the deposited data

How the results depend on the processing

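The number of arrays limits the precision, and most detected stars lie close to the empty spots, where the offset, the scaling and the detection level decide the value. Of 63 values for counts of detected stars, detected pairs and calls, 37 stayed close to the main value and 26 moved. At percentile 99 of the empty spots 3 stars were detected at 7 dpi and 2 at 21 dpi, with both strands detected in 2 pairs and 1 pair. Those at 7 dpi were dre-miR-133a*, dre-miR-140* and xtr-miR-199a*, and those at 21 dpi were dre-miR-140* and xtr-miR-199a*. At the empty-spot median plus 3 median absolute deviations, chosen after seeing the data, 5 stars and 2 pairs were detected at 7 dpi. Counts of stars called at 7 dpi against uninjured, 0 in the main setting, were 3 without normalization (all lower), 5 under scaling to shared probes (all higher), 3 under scaling to spike-in probes (all lower), 1 with a floor of 32, 2 with an offset of 16, 2 at a 1.5-fold threshold and 8 in the authors' values (5 higher, 3 lower). At 21 dpi against uninjured they were 1 with cyclic loess, shared-probe scaling, 5S rRNA scaling, the floor of 32 and the offset of 16 (dre-miR-133a* each time), 8 with spike-in scaling (all lower), 2 at 1.5-fold and 2 in the authors' values. At 21 dpi against 7 dpi they were 2 without normalization (both higher), 6, 5 and 5 under shared-probe, 5S rRNA and spike-in scaling (all lower), and 5 in the authors' values (1 higher, 4 lower). Under these scalings the counts over all probes shifted too: 96 of 255 were called lower at 7 dpi without normalization, 67 of 255 higher with shared-probe scaling and 113 of 255 lower with spike-in scaling, and 163 of 230 were called lower at 21 dpi with spike-in scaling. At 21 dpi against 7 dpi, 127 of 231 were called higher without normalization. Called lower there were 68, 47 and 60 of 231 under shared-probe, 5S rRNA and spike-in scaling. At 21 dpi against uninjured, cyclic loess called 5 of 230 higher and 11 lower. Shared-probe and 5S rRNA scaling called 4 and 3 higher and 13 and 16 lower. The authors' values have no spots, so their calls rest on size and detection alone. Over all probes they called 50 higher and 44 lower of 255 at 7 dpi, and 14 and 41 of 230 at 21 dpi. At 21 dpi against 7 dpi they called 24 and 54 of 231. In the same order, at 7 dpi the 1.5-fold threshold called 36 and 30, the offset of 16 30 and 21. The floor of 32 called 25 and 21 there. At 21 dpi against uninjured these 3 settings called 17 and 18, 6 and 8, and 7 and 12. Scaling by 1 factor follows the offset and shifts probes near the empty spots with the array. No paired analysis was possible because each group holds 1 sample.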

Other observations

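Hairpins whose arms carry the names -5p and -3p, with no asterisk, were counted too. This set shares the probes hsa-miR-140-5p and hsa-miR-199a-5p with the star pairs. Of 86 such hairpins, both arms were detected for 3 on the uninjured array (3.49%), 4 at 7 dpi (4.65%) and 2 at 21 dpi (2.33%). A single arm was detected for 13, 10 and 9, and neither for 70, 72 and 75. Among the star pairs 6, 4 and 3 had both probes detected, 76, 71 and 72 the main strand alone and 2, 5 and 1 the star alone. Where any arm was detected, both were thus seen in a larger share of these hairpins than of the star pairs. That share rests on few hairpins, and miR-199a is among them on every array. The hairpins with both arms were miR-140, miR-199a and miR-574 on the uninjured array, miR-199a, miR-483, miR-574 and miR-885 at 7 dpi, and miR-199a and miR-574 at 21 dpi. The arms of miR-140 and miR-199a are those read by the 2 brightest stars, so these hairpins are not independent of them.

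In the authors' deposited table dre-miR-133a* had processed intensities of 140.6, 76.3 and 45.7 on the uninjured, 7 dpi and 21 dpi arrays, beside 1883, 2349 and 2128 for hsa-miR-133a.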
